A study of Mus musculus with 4 samples.

Results

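Gfi1 and 7 genes reported as its targets, Il7r, Ets1, Ets2, E2f5, E2f6, Cdkn1a and Csf1, were followed on 4 expression arrays of mouse spleen T cells. Every probe set that the platform annotation assigns to 1 of these 8 symbols alone was taken, which gave 8 of the 12393 genes named on the array and 17 of its 20380 probe sets with a single symbol. Gfi1, Ets2 and E2f6 had 1 probe set each, Il7r, E2f5 and Cdkn1a had 2 each, and Ets1 and Csf1 had 4 each.

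There were 4 groups with 1 array each: the CD4 and the CD8 subset of Gfi1 knockout mice, and the same subsets of wildtype mice. All mice were of the C57Bl/6 strain and untreated, all cells were sorted from spleen as CD44lo, and each array carries the pooled RNA of 2 mice. The labels give neither the Gfi1 allele, nor the part of the gene removed, nor the age of the mice. The sample titles end in the letter N for both arrays labelled knockout and in the letter M for both labelled wildtype, and the labels do not say what these letters stand for. No group has a replicate, so there is no spread between animals, no test was made and no p-value is given, and every value is only as precise as 1 array allows.

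Gfi1 is a zinc finger protein that binds DNA and represses transcription in blood cells. Its N-terminal SNAG domain recruits the demethylase Kdm1a with corepressors and histone deacetylases, and Gfi1 is known to repress its own promoter. In T cells it is known for roles in thymocyte survival and in the response to cytokines. Il7r was reported as a target in mouse T cells, while the ETS, E2F, Cdkn1a and Csf1 genes were reported mainly from human cells. A reported target is a gene found bound or repressed elsewhere, and binding was not measured here.

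The promoter windows of 4 of these genes are shown because Gfi1 acts through such sequences and because these genes had a fold of at least 1.5 in 1 subset with both arrays above the floor defined below, for Csf1 as deposited but not after rescaling. Each holds the 250 bases before a RefSeq start site, written 5′ to 3′ on the strand of the gene, with the Gfi1 core AATC or its reverse complement GATT in capitals.
Gfi1, GRCm38.p6, chr5:107725806-107726055, minus strand: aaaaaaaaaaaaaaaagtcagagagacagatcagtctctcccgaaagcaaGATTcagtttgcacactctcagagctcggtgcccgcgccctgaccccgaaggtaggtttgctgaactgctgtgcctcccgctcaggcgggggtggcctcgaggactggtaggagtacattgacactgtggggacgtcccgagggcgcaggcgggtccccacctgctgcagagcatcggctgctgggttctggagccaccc
Il7r, GRCm38.p6, chr15:9529877-9530126, minus strand: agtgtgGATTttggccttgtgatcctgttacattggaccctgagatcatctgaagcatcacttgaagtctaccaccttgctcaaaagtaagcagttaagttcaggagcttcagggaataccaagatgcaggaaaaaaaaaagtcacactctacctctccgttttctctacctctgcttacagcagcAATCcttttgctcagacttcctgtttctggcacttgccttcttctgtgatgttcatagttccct
Ets2, GRCm38.p6, chr16:95702157-95702406, plus strand: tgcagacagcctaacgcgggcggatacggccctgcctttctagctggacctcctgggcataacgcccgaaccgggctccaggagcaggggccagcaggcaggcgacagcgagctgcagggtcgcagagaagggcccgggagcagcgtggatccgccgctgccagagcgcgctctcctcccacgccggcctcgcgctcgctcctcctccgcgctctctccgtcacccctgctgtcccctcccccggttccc
Csf1, GRCm38.p6, chr3:107760470-107760719, minus strand: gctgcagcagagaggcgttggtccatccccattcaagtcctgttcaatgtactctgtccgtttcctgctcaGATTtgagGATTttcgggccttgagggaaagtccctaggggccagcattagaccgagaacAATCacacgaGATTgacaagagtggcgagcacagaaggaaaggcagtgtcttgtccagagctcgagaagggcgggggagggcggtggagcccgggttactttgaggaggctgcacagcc

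The window of Ets2 holds no match, that of Gfi1 holds 1, that of Il7r 2 and that of Csf1 4. Windows were given for 6 of the 8 genes, in 8 windows with the second start sites of Gfi1 and Cdkn1a, and AATC on either strand was found in 6 of the 8. Over all 32851 windows of this length in the table, 69.0% hold AATC and 7.04% hold it at least 4 times, so that a match is common. The longer form AAATCA, which contains the core, was in 0 of the 8 windows and in 12.4% of all windows. The ETS core AGGAAG was in 3 of the 8 and in 29.5% of all. The E2F sites TTTCGCGC, TTTGGCGC and TTTCCCGC were in 0 of the 8, against 0.256%, 0.417% and 0.895% of all. Another 2 longer forms of the Gfi1 site, of 10 letters each, were in 0 of the 8, against 0.052% and 0.091% of all. The E2F sites and the forms of 10 letters are so rare that 0 of 8 windows does not set these genes apart. All motifs were searched on both strands, and a match is a description of letters and not a bound site.

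The subset markers followed the labels, while Cd44 went against the CD44lo label on the wildtype arrays. Cd4, the coreceptor of helper T cells, read 5470 on the knockout CD4 and 5901 on the wildtype CD4 array, with both CD8 arrays below the floor. Cd8a, the coreceptor of cytotoxic T cells, read 16639 on the knockout CD8 and 15920 on the wildtype CD8 array, with both CD4 arrays below the floor. Cd8b1, the gene of the other CD8 chain, read 25715 on the knockout CD8 and 26222 on the wildtype CD8 array. It was also above the floor on the CD4 arrays, at 970.5 on the knockout and 312.1 on the wildtype array, 3.11-fold higher on the knockout array. Cd44, an adhesion receptor that antigen-experienced T cells carry at a high level, read 196 and 252 on the knockout CD4 and CD8 arrays, against 8136 and 5740 on the wildtype CD4 and CD8 arrays. Genotype and sort are given as labelled throughout, but since Cd44 separates the arrays of each subset in the same way as the genotype label, genotype and a CD44-high or CD44-low state of the cells cannot be told apart in any fold of knockout over wildtype. The floor is a signal of 93.9, the 40th percentile of all values outside the control probe sets, below which values were not ordered. Between 58.4% and 61.6% of probe sets lay above it on each array.

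Several lists of marker genes moved along with the genotype labels, some in 1 subset alone, while the general T cell genes stayed near level. All 10 memory and effector genes were at least 2-fold lower on the knockout array in both subsets, Cd44 among them. Over all genes, each represented by its brightest probe set, 7.72% were at least 2-fold lower in CD4 and 4.24% in CD8 cells. The memory and effector genes summed to 2362 and 12675 on the knockout CD4 and CD8 arrays, against 66707 and 70672 on the wildtype CD4 and CD8 arrays. All 7 named cycling genes were likewise lower, with sums of 1334 and 2907 on the knockout CD4 and CD8 arrays, against 19938 and 8735 on the wildtype CD4 and CD8 arrays. Of 5 named naive T cell genes, 4 were at least 2-fold higher in CD4 and 1 in CD8 cells. Over all genes, 2.07% were at least 2-fold higher in CD4 and 1.21% in CD8 cells. The naive T cell genes summed to 71646 and 57001 on the knockout CD4 and CD8 arrays, against 24038 and 38477 on the wildtype CD4 and CD8 arrays. The 8 dendritic cell and MHC class II genes summed to 1536 on the knockout CD8 and 48471 on the wildtype CD8 array, and to 4342 on the knockout CD4 and 4026 on the wildtype CD4 array. Natural killer genes, with 3 of 4 named, summed to 84.4 and 122.1 on the knockout CD4 and CD8 arrays, against 1782 and 1733 on the wildtype CD4 and CD8 arrays. Most of the wildtype sums came from 1 gene, Klrk1, at 1742 on the CD4 and 1511 on the CD8 array. Ncr1 lay below the floor on all 4 arrays, and none of the named genes was above it on the knockout CD4 array. These sums are thus a reading of Klrk1 rather than of the list. B cell genes, with 5 of 6 named, summed to 287.0 and 902.8 on the knockout CD4 and CD8 arrays, against 1578 and 1723 on the wildtype CD4 and CD8 arrays, with Cd79a and Ms4a1 below the floor on all 4 arrays. In CD8 cells Cd79b was near level, at 737.5 on the knockout and 759.1 on the wildtype array. Cd22 and Blk read 614.6 and 199.9 on the wildtype CD8 array and were below the floor on the knockout CD8 array. All sums include values below the floor. The 8 myeloid genes summed to 494.7 and 370.2 on the knockout CD4 and CD8 arrays, against 524.7 and 784.0 on the wildtype CD4 and CD8 arrays, with S100a8, S100a9, Elane and Mpo below the floor on all 4 arrays. The 4 general T cell genes summed to 68704 and 71322 on the knockout CD4 and CD8 arrays, against 63364 and 67937 on the wildtype CD4 and CD8 arrays. The part of these markers in the values below was not tested, and in sorted bulk samples fewer cells of a type and less RNA per cell cannot be told apart.

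Because no array has a replicate, folds were set beside a pair of yardsticks. The first is the agreement of probe sets of the same gene: over 2883 genes with at least 2 probe sets above the floor, the log2 folds of the 2 brightest differed by a median of 0.21 in CD4 cells, and by up to 0.64 at the 90th percentile. In CD8 cells these values were 0.20 and 0.61 over 2887 genes. The second is the place of a fold among all named probe sets above the floor on at least 1 of the arrays compared, 13289 in CD4 and 13162 in CD8 cells. As deposited, the median of all these log2 folds was -0.03 for CD4 and -0.02 for CD8. Centring each array on its median moved it to 0.28 and 0.19. The folds, their places and the counts below are as deposited and not adjusted for that shift, unless another scaling is named.

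Gfi1 itself was not lower on the arrays labelled knockout. Its probe set 1417679_at read 2891 on the knockout CD4 and 2447 on the knockout CD8 array, against 2272 on the wildtype CD4 and 1158 on the wildtype CD8 array. The wildtype CD8 array was the low one, and the other 3 lay within a narrow range. The log2 fold was 0.35 in CD4 cells, a value that 18.4% of named probe sets equalled or passed. In CD8 cells it was 1.08, or 2.11-fold, which 1.16% equalled or passed. The direction was the same under all 6 alternatives of scaling and floor, at 0.35 to 0.66 in CD4 and 1.07 to 1.29 in CD8 cells. Where the probes lie relative to the removed part of Gfi1 is not stated in the labels, so this signal does not check the genotype. The sum of dendritic cell and MHC class II genes was highest on the same wildtype CD8 array, and its part in the Gfi1 value was not tested.

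**Figure D1:**
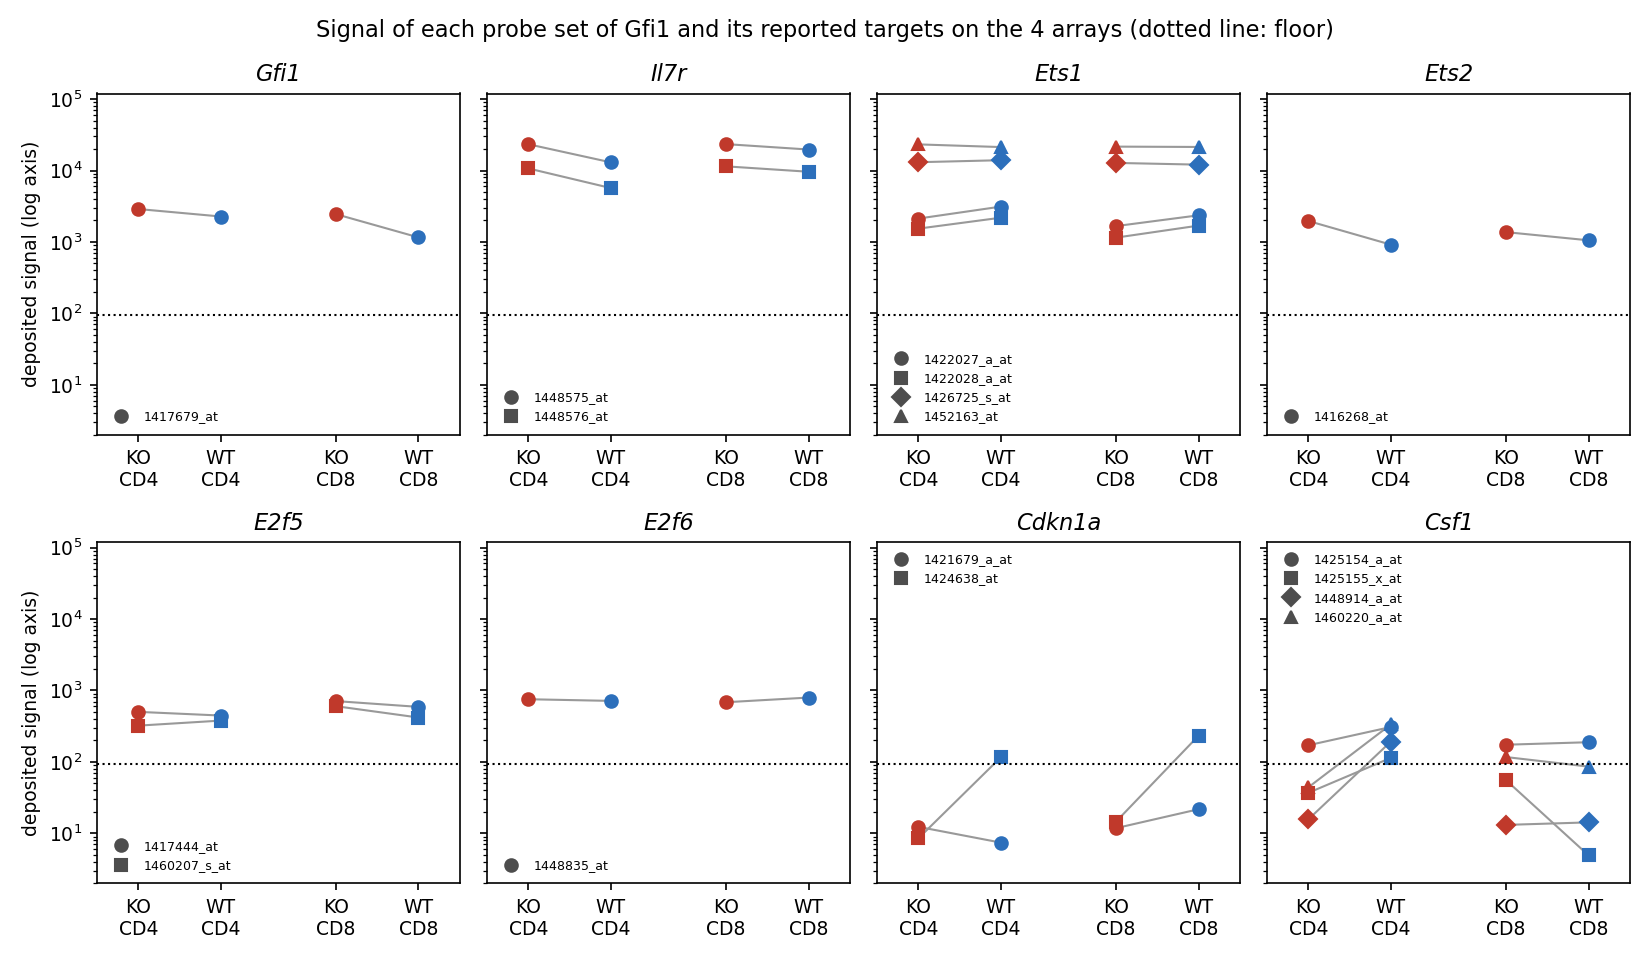
Deposited signal (log axis) of each of the 17 probe sets on the 4 arrays, knockout-labelled in red and wildtype-labelled in blue, with 1 point per array and a line joining the arrays of 1 subset. The dotted line is the floor of 93.9. Gfi1 is lowest on the wildtype CD8 array at 1158, and the 4 Ets1 probe sets form 2 pairs that slope differently. Heights of different probe sets are not comparable.

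The genes whose pattern over the 4 arrays was most like that of Gfi1 were found by the distance between log2 values centred per gene, among 6881 other genes that every array detected above the floor. The nearest was St8sia1, which encodes a sialyltransferase of ganglioside synthesis, at a distance of 0.17. Its signals were 576.0 and 505.1 on the knockout CD4 and CD8 arrays, against 432.2 and 258.3 on the wildtype CD4 and CD8 arrays. Ramp1, a partner of the receptor for the neuropeptide CGRP, followed at 0.22, then Rasl11b at 0.22, the selenium carrier gene Selenop at 0.24 and Arid5b, which encodes a DNA-binding chromatin factor, at 0.26. The order of the arrays seen for Gfi1 was shared by 301 of these genes, or 4.37%. With 4 arrays such likeness is a description only.

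Il7r, the alpha chain of the receptor for interleukin-7, which naive and memory T cells need to survive, was higher on the knockout CD4 array with both probe sets. Probe set 1448575_at read 23352 on the knockout CD4 and 23447 on the knockout CD8 array, against 13038 on the wildtype CD4 and 19706 on the wildtype CD8 array. Probe set 1448576_at read 10701 and 11448 on the knockout CD4 and CD8 arrays, against 5688 and 9625 on the wildtype CD4 and CD8 arrays. In both, the wildtype CD4 array was the low one and the knockout arrays were nearly level with each other. The log2 folds were 0.84 and 0.91 in CD4 cells, which 3.57% and 2.78% of named probe sets equalled or passed. In CD8 cells both were 0.25, which 18.3% and 18.4% equalled or passed. The probe sets differed from each other by 0.07 in CD4 and 0.0006 in CD8 cells, well under the median difference of 0.21 and 0.20 between probe sets of a gene. Of 5 naive T cell genes, 4 were at least 2-fold higher on the knockout array in CD4 and 1 in CD8 cells. Over all genes 2.07% and 1.21% were, and the part of the naive T cell genes in the Il7r value was not tested.

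Ets2 was the gene with the largest fold upward in CD4 cells among the 8. Ets1 and Ets2 encode related transcription factors with an ETS DNA-binding domain, and Ets1 is needed for T cell survival and for cytokine production. The only Ets2 probe set, 1416268_at, read 1963 on the knockout CD4 and 1372 on the knockout CD8 array, against 917.1 on the wildtype CD4 and 1055 on the wildtype CD8 array. Both knockout arrays lay above both wildtype arrays, with the knockout CD4 array highest. The fold was 2.14 in CD4 cells (log2 1.10, equalled or passed by 1.64% of named probe sets) and 1.30 in CD8 cells (log2 0.38, 10.8%).

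The 4 probe sets of Ets1 fell into 2 pairs. Probe set 1422027_a_at read 2127 and 1669 on the knockout CD4 and CD8 arrays, against 3126 and 2361 on the wildtype CD4 and CD8 arrays. Probe set 1422028_a_at read 1537 and 1150 on the knockout CD4 and CD8 arrays, against 2186 and 1695 on the wildtype CD4 and CD8 arrays. Both were lower on the knockout array, by log2 folds of -0.56 and -0.51 in CD4 and -0.50 and -0.56 in CD8 cells. The other pair was near level. Probe set 1452163_at read 23254 and 21634 on the knockout CD4 and CD8 arrays, against 21328 and 21404 on the wildtype CD4 and CD8 arrays. Probe set 1426725_s_at read 13088 and 12793 on the knockout CD4 and CD8 arrays, against 13963 and 12103 on the wildtype CD4 and CD8 arrays. Their log2 folds lay at 0.12 and -0.09 in CD4 and 0.02 and 0.08 in CD8 cells, and the sign turned with the scaling for 1452163_at in both subsets (-0.08 and -0.02 after quantile normalization) and for 1426725_s_at in CD4 cells (0.22 with median centring). Within a pair the folds differed by 0.05 and 0.06 for the first and by 0.22 and 0.06 for the second, in CD4 and CD8 cells. Across the pairs they differed by 0.42 to 0.68 in CD4 and 0.52 to 0.64 in CD8 cells, more than the median difference between probe sets of a gene, and near its 90th percentile. On this array an ID ending in _a_at marks probes shared by several transcripts of 1 gene. Which Ets1 transcripts each probe set detects was not looked up here, so no single fold is given for Ets1.

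E2f5 and E2f6, which encode repressor members of the E2F family that regulate entry into the cell cycle, had folds under 1.5 with every probe set in both subsets as deposited. The fold of E2f5 1460207_s_at in CD8 cells passed 1.5 after quantile normalization (log2 0.61) and with median centring (0.74). E2f6 read 753.6 and 684.3 on the knockout CD4 and CD8 arrays, against 714.3 and 795.2 on the wildtype CD4 and CD8 arrays, with log2 folds of 0.08 and -0.22. For E2f5, probe set 1417444_at read 501.4 and 709.2 on the knockout CD4 and CD8 arrays, against 445.3 and 588.8 on the wildtype CD4 and CD8 arrays. Probe set 1460207_s_at read 321.6 and 601.6 on the knockout CD4 and CD8 arrays, against 378.3 and 417.7 on the wildtype CD4 and CD8 arrays. The E2f5 folds were 0.17 and -0.23 in CD4 cells, so the probe sets differed in sign, and 0.27 and 0.53 in CD8 cells, where both were higher on the knockout array. The value of -0.23 turned to 0.08 with median centring. In CD4 cells the E2f5 probe sets differed by 0.41 and in CD8 cells by 0.26. All 7 named cycling genes were at least 2-fold lower on the knockout arrays in both subsets. Over all genes 7.72% were in CD4 and 4.24% in CD8 cells. The part of the cycling genes in the E2f5 and E2f6 values was not tested.

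Cdkn1a, which encodes p21, an inhibitor of cyclin-dependent kinases and a target of p53, was detected on the wildtype arrays alone. Probe set 1424638_at read 8.5 and 14.6 on the knockout CD4 and CD8 arrays, both below the floor, against 115.8 and 232.4 on the wildtype CD4 and CD8 arrays. It was at least 1.23-fold lower on the knockout array in CD4 and at least 2.48-fold lower in CD8 cells. With a floor at the 60th percentile no fold was left in either subset. The other probe set, 1421679_a_at, read between 7.4 and 21.7 and lay below the floor on all 4 arrays, so the gene rests on 1 probe set close to the floor. Memory, effector and cycling genes were lower on the same arrays, and their part in the Cdkn1a value was not tested.

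Csf1, the macrophage growth factor, was close to the floor on most arrays and highest on the wildtype CD4 array. Its probe set above the floor on all 4 arrays, 1425154_a_at, read 171.0 and 173.8 on the knockout CD4 and CD8 arrays, against 307.6 and 188.4 on the wildtype CD4 and CD8 arrays. The wildtype CD4 array stood apart and the other 3 were close to each other. The log2 fold was -0.85 in CD4 cells, a value that 9.23% of named probe sets equalled or were below. Quantile normalization gave -0.56 and median centring -0.53, both under 1.5-fold. In CD8 cells it was -0.12, which turned to 0.10 after quantile normalization and with median centring. The wildtype CD4 array was also the highest for the other 3 probe sets. Probe set 1460220_a_at read 44.1 and 116.7 on the knockout CD4 and CD8 arrays, against 334.3 and 85.8 on the wildtype CD4 and CD8 arrays, at least 3.56-fold lower in CD4 cells and at least 1.24-fold higher in CD8 cells. Probe set 1448914_a_at read 15.7 on the knockout CD4 and 192.3 on the wildtype CD4 array, at least 2.05-fold lower, and 1425155_x_at read 36.9 on the knockout CD4 and 113.7 on the wildtype CD4 array, at least 1.21-fold lower. Neither was above the floor in CD8 cells. With a floor at the 60th percentile no fold of Csf1 was left in either subset. The Csf1 window printed above has 4 matches to the Gfi1 core, the most among the 8 windows.

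**Figure D2:**
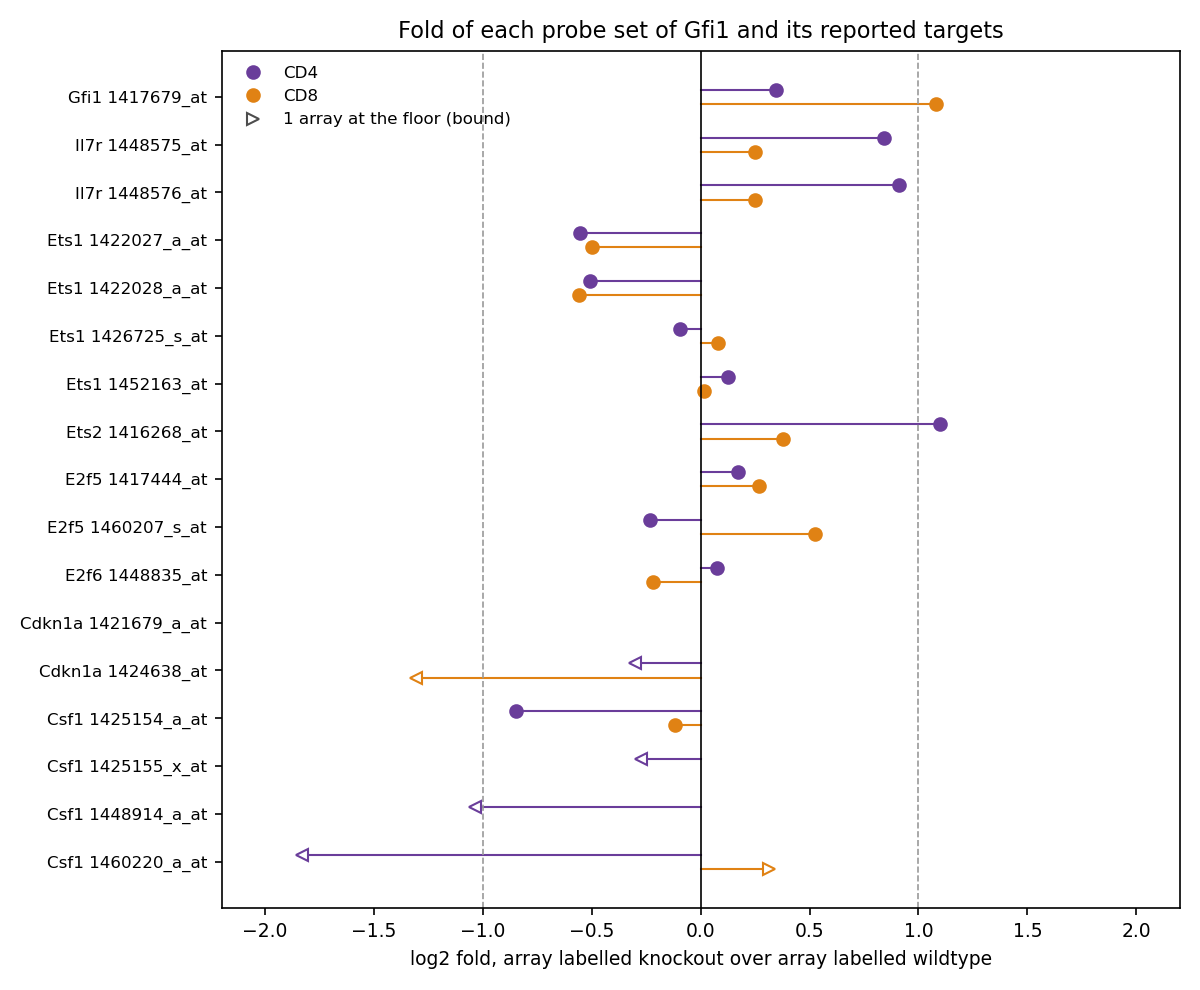
Log2 fold of the array labelled knockout over the array labelled wildtype for each of the 17 probe sets, with CD4 in purple and CD8 in orange, and open triangles where 1 array is at the floor and the fold is a bound. Dashed lines mark 2-fold. Ets2 in CD4 cells (1.10) and Gfi1 in CD8 cells (1.08) lie past the upper line, and Csf1 1460220_a_at in CD4 (-1.83) and Cdkn1a 1424638_at in CD8 cells (-1.31) are the lowest.

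Counted together, the probe sets of these genes lay on both sides of 0. In CD4 cells 16 of the 17 were above the floor on at least 1 array, of which 7 had a positive and 9 a negative log2 fold, with a median of -0.16 beside -0.03 for all named probe sets, of which 47.6% were positive. In CD8 cells 14 were, of which 9 were positive and 5 negative, with a median of 0.17 beside -0.02 and 47.1% positive. Under median centring the counts were 9 positive and 7 negative in CD4 and 10 and 4 in CD8 cells. In the counts that follow, a bound counts as 2-fold only where the bound itself reaches it. At least 2-fold higher on the knockout array in CD4 cells was 1 of 16 (Ets2), against 2.2% of all named probe sets, and at least 2-fold lower were 2 of 16 (both Csf1), against 7.09%. In CD8 cells 1 of 14 was at least 2-fold higher (Gfi1), against 1.33%, and 1 of 14 at least 2-fold lower (Cdkn1a), against 3.87%. At 1.5-fold in CD4 cells, 3 of 16 were higher (Ets2 and both of Il7r), against 8.38% of all, and 3 lower (all Csf1), against 14.9%. At 1.5-fold in CD8 cells 1 of 14 was higher, against 4.81%, and 1 lower, against 10.3%. Probe sets of 1 gene measure the same RNA, so these counts come from 5 genes and are too few to set apart from the background.

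**Figure D3:**
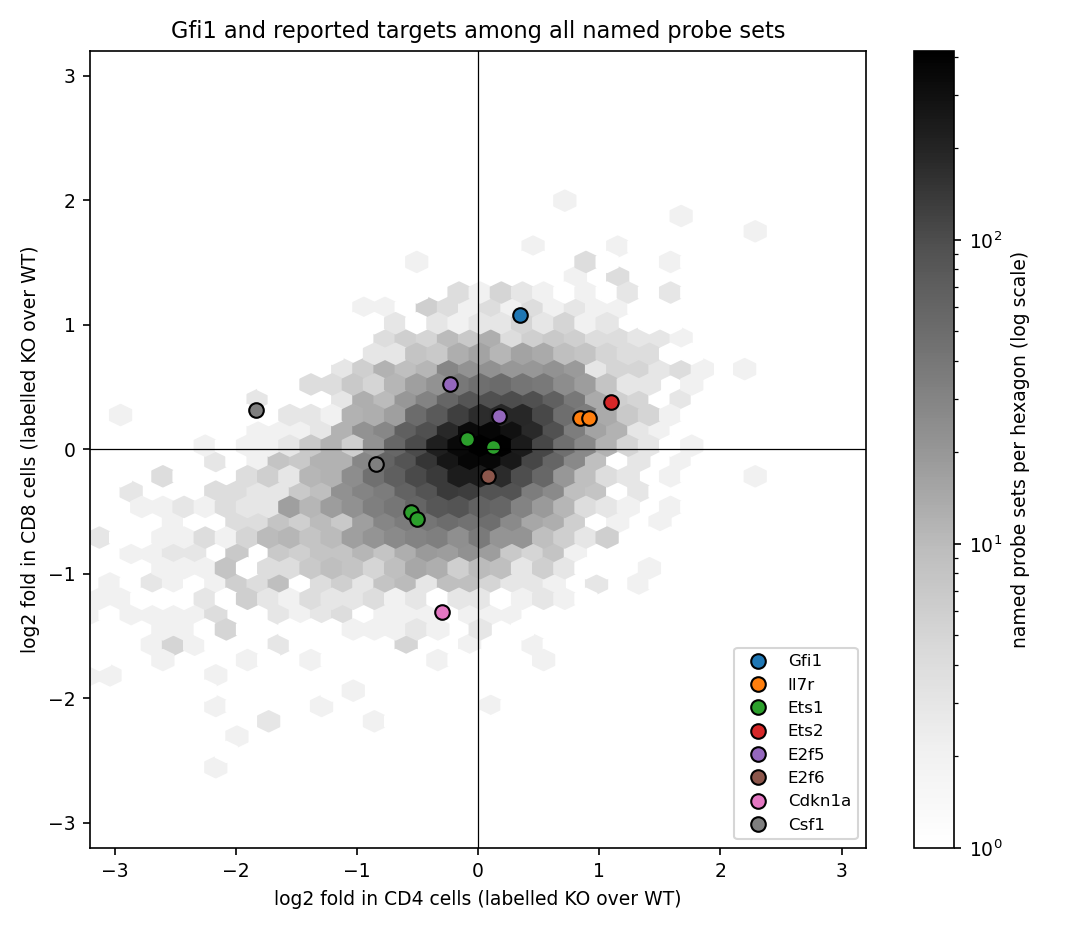
Log2 fold in CD4 cells (horizontal) and in CD8 cells (vertical) of 12466 named probe sets above the floor in both comparisons, with grey hexagons shaded by their number on a log scale and 14 probe sets of Gfi1 and its reported targets as coloured points, bounds included. A further 98 of these probe sets lie beyond 3.2 on an axis and are not drawn. Il7r and Ets2 lie to the right, Gfi1 above and Cdkn1a below the dense centre.

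Gfi1 and Il7r differed more between the subsets on the wildtype than on the knockout arrays. For Gfi1 the log2 of CD8 over CD4 was -0.24 on the knockout and -0.97 on the wildtype arrays. For the Il7r probe sets it was 0.01 and 0.10 on the knockout arrays, against 0.60 and 0.76 on the wildtype arrays. Ets2 was lower in CD8 than in CD4 cells on the knockout arrays (-0.52) and higher on the wildtype arrays (0.20). E2f5 was higher in CD8 cells on all arrays, at 0.50 and 0.90 on the knockout and 0.40 and 0.14 on the wildtype arrays. On the knockout arrays 0 of 13 probe sets above the floor reached 2-fold higher in CD8 cells, against 1.87% of all named probe sets, and 0 reached 2-fold lower, against 1.45%. On the wildtype arrays 1 of 16 was at least 2-fold higher (Cdkn1a 1424638_at, 2.01-fold), against 3.09%, and 2 lower (Csf1 1448914_a_at and 1460220_a_at), against 4.65%. These differences have 1 array on each side and share their arrays with the genotype comparisons above.

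Among the listed corepressors and partners of Gfi1, no fold of 2 was measured. Of 14 corepressors and partners 13 were named and 10 lay above the floor, of which 0 reached 2-fold in either subset, though Rcor2 in CD4 cells is known only as a bound. The median log2 fold, with that bound taken as a value, was -0.08 in CD4 and -0.06 in CD8 cells. These medians turned to 0.23 and 0.16 with median centring. Over all genes, each represented by its brightest probe set, 2.07% reached 2-fold higher in CD4 cells, against 7.72% lower, while 1.21% did so in CD8 cells, against 4.24% lower, with medians of -0.02 in both. These shares are also the ones to set beside the counts of the lists in the paragraphs below. Kdm1a read 3159 and 3198 on the knockout CD4 and CD8 arrays, against 3389 and 3270 on the wildtype CD4 and CD8 arrays. The largest folds were those of Pias3, an inhibitor of STAT3 that Gfi1 is known to bind (-0.98 in CD4 and -0.67 in CD8), Ehmt2, a histone methyltransferase gene (-0.76 and -0.40), and Rcor2, a CoREST family gene (at least 1.21-fold lower in CD4 and -0.61 in CD8 cells). Zbtb17, which encodes the Miz-1 partner of Gfi1, had log2 folds of -0.16 and -0.35. Gfi1b, the closest relative of Gfi1, lay below the floor on all 4 arrays.

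Other genes reported as Gfi1 targets were mostly not detected, and those that were did not lie higher on the knockout arrays by 2-fold. Of 13 genes 10 were named, and Gfi1b, Elane, Id1, Hoxa9, Meis1 and Cdkn2b lay below the floor on all 4 arrays. In CD4 cells 2 of 4 were at least 2-fold lower and 0 higher, with a median of -1.34 that was -0.54 without probe sets ending in _s_at, _x_at or _a_at and 0 with a floor at the 60th percentile, and in CD8 cells 1 of 3 was lower, with a median of -0.51. The CD4 median lies midway between the bounds of Cebpa and Spi1, so it depends on the floor. It was -1.69 with a floor at the 25th percentile or without a floor. Id2, an inhibitor of helix-loop-helix factors that effector T cells express, read 2942 and 4259 on the knockout CD4 and CD8 arrays, against 15967 and 6048 on the wildtype CD4 and CD8 arrays, with log2 folds of -2.44 and -0.51. Cebpa, a factor of myeloid differentiation, read 4.3 on the knockout CD4 and 428.5 on the wildtype CD4 array, at least 4.56-fold lower, and was not above the floor in CD8 cells. Spi1, which encodes the PU.1 factor of myeloid and B cells, was at least 1.41-fold lower in CD4 cells and read 163.4 on the knockout CD8 and 339.3 on the wildtype CD8 array (-1.05). Dendritic cell genes were highest on that wildtype CD8 array, and their part in the Spi1 value was not tested.

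The families of the targets showed what else was on the arrays. Of 16 ETS genes, 14 were above the floor, of which 1 was at least 2-fold higher (Ets2) and 2 lower in CD4 cells, and 0 higher and 1 lower in CD8 cells. For these ETS genes the CD4 median was -0.26, turning to 0.06 with median centring, and the CD8 median was 0.06, turning to -0.08 where the probe sets of a gene were averaged. Those lower in CD4 cells were Elk3, a ternary complex factor (-1.14, and -0.34 in CD8), and Elf4 (-1.03, and 0.15 in CD8), and the one lower in CD8 cells was Spi1. Etv5 was above the floor on the wildtype arrays alone, at 156.3 for CD4 and 103.9 for CD8. Ets2 was thus the ETS gene with the highest fold in CD4 cells, while Etv6 held that place in CD8 cells at 0.77.

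Of 13 E2F, DP and pocket protein genes 10 were named, and all 10 were above the floor. In CD4 cells 3 were at least 2-fold lower and 0 higher, with a median of -0.84 that was -0.33 without probe sets ending in _s_at, _x_at or _a_at and -0.07 with a floor at the 60th percentile, and in CD8 cells 0 reached 2-fold, though E2f8 is known only as at least 1.91-fold lower there, with a median of -0.08 that turned to 0.14 with median centring. Those lower in CD4 cells were E2f8, an atypical E2F of proliferating cells (496.3 on the wildtype array and below the floor on the knockout array, at least 5.29-fold), Rbl2, the pocket protein p130 (-1.37), and E2f1, an activator of S phase genes (at least 2.45-fold). Tfdp1, the dimerisation partner of E2F proteins, had folds of -0.96 and -0.14. E2f5 (0.17) and E2f6 (0.08) lay above the median of the list in CD4 cells.

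Among inhibitors of cyclin-dependent kinases, Cdkn1a and Cdkn2d lay on opposite sides. Of 8 genes 7 were named, and Cdkn2a and Cdkn2b lay below the floor on all 4 arrays. In CD4 cells 1 of 5 was at least 2-fold lower, Cdkn2c (p18), which read 553.0 on the knockout and 2124 on the wildtype array (-1.94), and in CD8 cells 1 of 4 was, Cdkn1a. Cdkn2d, the p19 inhibitor of Cdk4 and Cdk6, read 5542 and 5387 on the knockout CD4 and CD8 arrays, against 2977 and 3584 on the wildtype CD4 and CD8 arrays, with log2 folds of 0.90 and 0.59. Cdkn1c was above the floor on the wildtype CD4 array alone, at 140.4. The CD4 median was -0.30 and the CD8 median -0.01, the second turning to 0.20 with median centring. This CD4 median is the bound of Cdkn1a taken as a value, which is also the CD4 median of the p53 list below. For the CDK inhibitors it was -0.64 with a floor at the 25th percentile or without a floor.

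The p53 target genes, a list that also holds Cdkn1a, did not share 1 direction. Of 11 genes 9 were named, all above the floor, with 1 higher by 2-fold or more and 2 lower in CD4 cells and 0 higher and 1 lower in CD8 cells. Bbc3, the death gene Puma, read 1621 on the knockout CD4 and 523.5 on the wildtype CD4 array (1.63), but 1244 on the knockout CD8 and 1972 on the wildtype CD8 array (-0.66). Pmaip1, the death gene Noxa, was lower in both, at -1.71 and -0.69, as was Phlda3, an inhibitor of Akt, at -1.22 and -0.46. The medians were -0.30 and -0.15, the second turning to 0.06 with median centring. The CD4 median is the bound of Cdkn1a taken as a value. It was -0.63 with a floor at the 25th percentile or without a floor.

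Around Il7r, the genes of its signalling were within 2-fold but for 1 in CD4 cells. Of 13 genes 12 were named, 10 were above the floor, and 1 was at least 2-fold higher in CD4 cells, with a CD4 median of 0.11 and a CD8 median of 0.09. That gene was Bcl2, a survival gene induced by interleukin-7, which read 660.4 on the knockout CD4 and 325.4 on the wildtype CD4 array (1.02), and 728.5 on the knockout CD8 and 906.8 on the wildtype CD8 array (-0.32). Cish, a feedback inhibitor of STAT5, had folds of -0.88 and 0.37, and Crlf2, the TSLP receptor chain that pairs with Il7r, had folds of -0.30 and -0.58. The genes for the ligands Il7 and Tslp lay below the floor on all 4 arrays. Of 6 factors known to act on Il7r, all were above the floor and 0 were 2-fold apart, with Ets1 represented by 1452163_at. Foxp1, a factor of naive T cells that opposes Foxo1 at Il7r, read 4423 and 4158 on the knockout CD4 and CD8 arrays, against 2340 and 3307 on the wildtype CD4 and CD8 arrays, with folds of 0.92 and 0.33. Runx1 had folds of -0.50 and 0.21 and Runx3 of -0.83 and 0.30. The medians of these factors were -0.05, turning to 0.27 with median centring, and 0.18.

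Beside Csf1, its receptor gene Csf1r read 196.8 and 202.0 on the knockout CD4 and CD8 arrays, against 192.6 and 238.1 on the wildtype CD4 and CD8 arrays, with log2 folds of 0.03 and -0.24. Il34, the other ligand of that receptor, was above the floor on the knockout CD8 array alone, at 131.3.

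**Figure D4:**
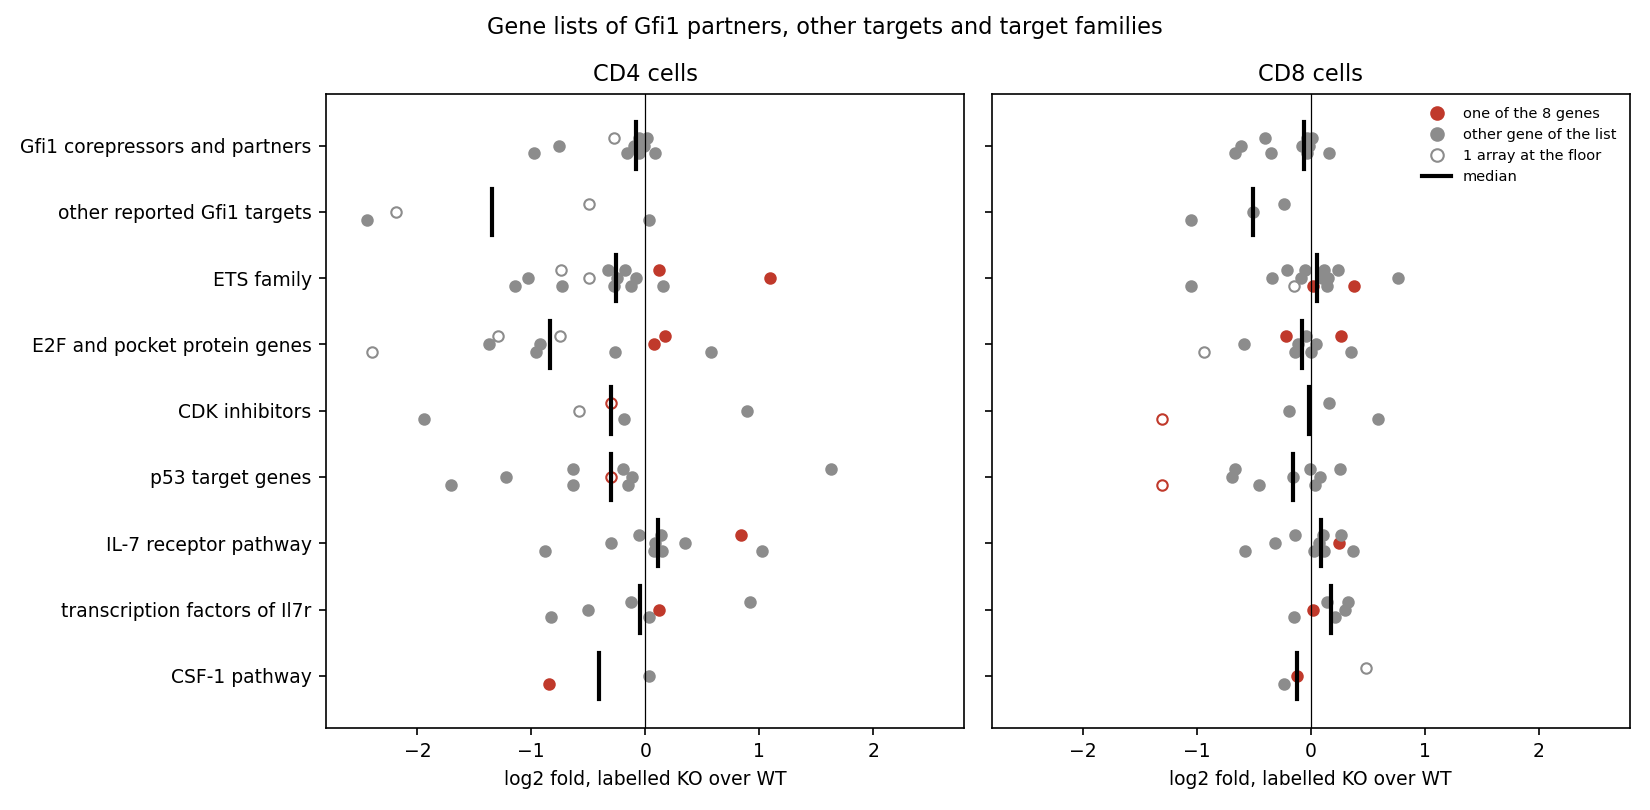
Log2 fold of the array labelled knockout over the array labelled wildtype for the genes of 9 lists, in CD4 cells (left) and CD8 cells (right), with 1 point per gene, open where 1 array is at the floor, red for the 8 genes of the report and a black bar at the median of the list. Ets2 (1.10) and Il7r (0.84) lie right of 0 in CD4 cells, and the E2F list has its median at -0.84 there and at -0.08 in CD8 cells.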

How the data were processed

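Affymetrix MOE430A_2.0 arrays were hybridised with biotin-labelled RNA from TRIzol extraction, per the labels' protocols. The authors deposited 1 linear signal intensity for each probe set. MAS5 and GCOS 1.4 are the tools listed in the submitters' processing notes, with no role given, and the labels state no scaling. Detection calls were not used. Of 22690 probe sets, 64 controls were left out; 20380 had 1 symbol, 691 several and 1555 none listed.

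Intensities below the 40th percentile (93.9) were set to it before log2, and a fold with 1 array at this floor is a bound. The folds are knockout over wildtype as labelled. A fold of 2 (or 1.5) was counted. An additive fit over both subsets would take their disagreement as error and was not used. In lists, a gene is represented by the probe set brightest on average, and a bound enters the median of a list as a value. Alternatives were quantile normalization, median centring, floors at the 25th and 60th percentile, no floor, log2 of the value plus 16, and for lists averaged probe sets or none ending in _s_at, _x_at or _a_at. Promoter windows come from RefSeq (GRCm38.p6). Proteins were not compared here. The fold step was tested on simulated data. Tools were matplotlib 3.10.9, pandas 2.3.3 and numpy 2.4.6 under Python 3.11.15.

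The genes and lists were chosen with earlier results of these data known. The text names all 17 probe sets, Cd44, Cd4, Cd8a, the 4 genes of each list with the largest mean fold, and the 5 genes most like Gfi1. Kdm1a, Elf4, Etv6, Cd8b1, Klrk1, Cd79b, Cd22, Blk, undetected genes and undetected markers were named after their values were seen.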

Additional observations from a re-analysis of the deposited data

Results flagged for a closer look

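For 4 probe sets the log2 folds of the 2 subsets had opposite signs, and the difference was not tested, since each fold has 1 array on each side. For Csf1 1460220_a_at the fold in CD8 cells exceeded that in CD4 cells by 2.15 (0.31 and -1.83, both bounds), for E2f5 1460207_s_at by 0.76 (0.53 and -0.23), and for Ets1 1426725_s_at by 0.17 (0.08 and -0.09). For E2f6 1448835_at the difference of CD8 minus CD4 was -0.29 (-0.22 and 0.08). The last 2 differences are near the median difference between probe sets of a gene, 0.20 to 0.21. With median centring E2f5 1460207_s_at (0.08 in CD4 and 0.74 in CD8) and Ets1 1426725_s_at (0.22 and 0.29) were positive in both subsets. How many of all named probe sets had opposite signs was not counted, so the number 4 does not set these genes apart.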

How the results depend on the processing

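Of 180 recomputed folds of the 8 genes, 131 moved by less than the median difference between probe sets of a gene (0.21 in CD4 and 0.20 in CD8 cells) and 49 by more, 24 of these under median centring, which shifts the folds of a subset together. Under median centring the fold of Gfi1 was 0.66 in CD4 and 1.29 in CD8 cells, 3 probe sets were at least 2-fold higher in CD4 cells in place of 1, and 1 was lower in place of 2. The number lower in CD4 cells was 1 after quantile normalization, 4 with a floor at the 25th percentile, without a floor or with log2 of the value plus 16, and 0 with a floor at the 60th percentile or counted over genes. At 1.5-fold the number higher in CD4 cells was 3. In CD8 cells 2 were higher in place of 1 without a floor or with log2 of the value plus 16, and 0 were lower in place of 1 with a floor at the 60th percentile. No fold past 2 turned its sign. With a floor at the 60th percentile the CD4 medians of the CDK inhibitor, CSF-1, ETS and other target lists were 0. So were the CD8 medians of the CSF-1, E2F, ETS, p53 and other target lists, since genes then at the floor on both arrays count as 0. Without probe sets ending in _s_at, _x_at or _a_at, the CD4 median of the IL-7 list was 0.35 in place of 0.11 and the CD8 median of the CSF-1 list -0.33 in place of -0.12. The labels give no replicate numbers to block on, and the fit of genotype plus subset, which pairs the arrays by subset, was not used. Signals near the floor limit Cdkn1a and Csf1, and the cause of the changes with the floor is its construction.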
